A study of Mus musculus with 9 samples.

Results

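Oligodendrocyte precursor cells (OPCs) were examined here in nuclei of mouse cortex and hippocampus. A nucleus was taken as a member when it held at least 1 UMI of at least 3 of the 7 genes Pdgfra, Vcan, Cspg4, Neu4, C1ql1, Lhfpl3 and Tnr, with Pdgfra or Cspg4 among them. It also had to hold 0 UMIs of Slc17a7, Gad1, Gad2, Mog and Flt1, which mark neurons, mature oligodendrocytes and endothelial cells, and at most 1 UMI of Enpp6, which marks newly forming oligodendrocytes. Members were thus chosen by their own counts of these 13 genes, which are given below as levels and not tested. The rule gave 1585 members among 74895 nuclei with 200 to 5000 genes and at most 10% mitochondrial UMIs, which is 2.12%. A UMI is a molecular tag that lets each captured RNA molecule be counted once.

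OPCs are the proliferating glia from which myelinating oligodendrocytes arise, and they persist throughout the adult brain. They receive growth signals through the PDGF receptor encoded by Pdgfra, carry the chondroitin sulfate proteoglycan NG2 encoded by Cspg4, and are contacted by neurons at synapses. Their identity rests on the transcription factors Olig1, Olig2 and Sox10, and on leaving the cell cycle they pass through a state marked by Gpr17 and Bcas1 before they make myelin.

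The 9 libraries came from wild-type C57BL/6 males, with 3 libraries in each of 3 groups. Young mice received AAV-EGFP, aged mice received AAV-EGFP, and aged mice received AAV-B3GNT3, which encodes a glycosyltransferase of the mucin-type O-glycan pathway. All vectors used the PHP.V1 capsid and an endothelial Cldn5 promoter fragment and were given behind the eye 8 weeks before tissue was taken, so the promoter is one of endothelial cells and not of OPCs. Ageing was read from aged against young AAV-EGFP mice and the transgene from aged AAV-B3GNT3 against aged AAV-EGFP mice, and both comparisons share the aged AAV-EGFP libraries. Per the authors, the aged mice came from the National Institute on Aging and the young mice from Jackson Laboratories. Age and source of the mice therefore cannot be told apart in the comparison of aged with young mice.

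The libraries gave 98 to 269 members each, whose counts summed to 491208 to 1168525 UMIs, with a median of 3559.5 to 5111.5 UMIs per member. Of the 1585 members, 104 (6.56%) were marked as likely doublets. Any 2 libraries shared 7 to 37 cell barcodes among all nuclei, and 1 barcode was shared among members. The share of UMIs estimated to be free RNA in member sums was 17.3 to 36.8% over the libraries. It rests on markers of other classes in all members, so nuclei of other classes wrongly taken as members would count in it too. Nuclei hold little cytoplasmic RNA. For a given gene, fewer members with its RNA and less of its RNA per member cannot be told apart in summed counts.

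The label held for members with 4 or more of the 7 markers and not for those with exactly 3. Ptprz1, a receptor phosphatase that OPCs and astrocytes make in quantity and that the rule did not use, was detected in 97.9% of the 331 members with 4 markers and in 42.4% of the 170 members with exactly 3. Sox10 was detected in 51.1% of the former and 6.47% of the latter, and Olig2 in 23.3% and 3.53%. Of the 349 nuclei just outside the rule, with 2 markers, 33.5% held Ptprz1 and 2.87% held Sox10. The nuclei with exactly 3 markers were thus closer in these genes to the nuclei outside than to the other members.

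**Figure D1:**
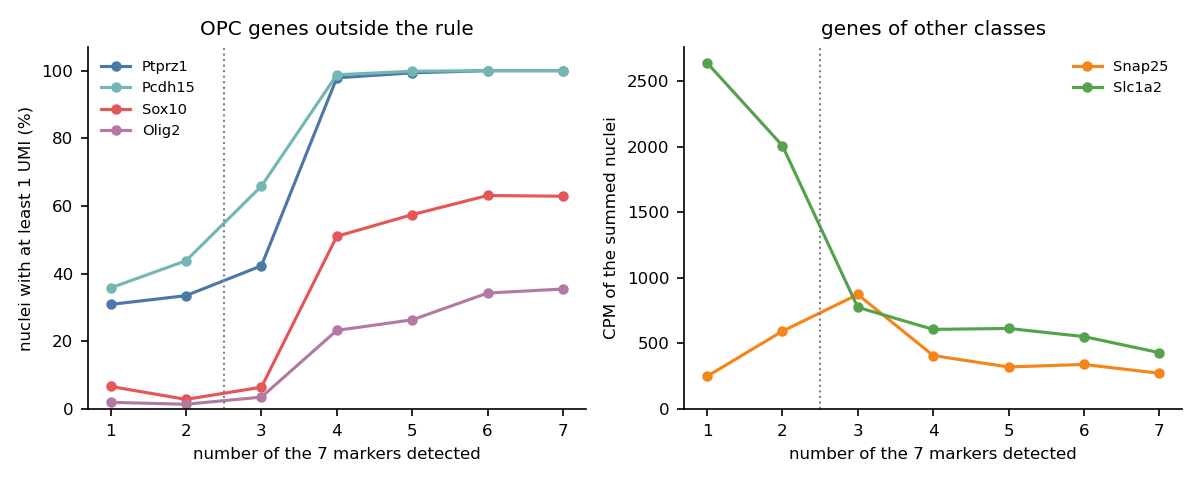
Left, the percentage of nuclei with at least 1 UMI of 4 OPC genes that the rule did not use, by the number of the 7 markers detected, with a dotted line at the rule's threshold. Right, the CPM of a neuronal (Snap25) and an astrocyte (Slc1a2) gene in the summed counts of the same nuclei; Ptprz1 steps from 42.4% at 3 markers to 97.9% at 4, and Snap25 is highest, at 874 CPM, at 3.

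The 170 members with exactly 3 markers were 10.7% of all members. Most, 101 nuclei, had Pdgfra, Lhfpl3 and Tnr, and 48 had Cspg4, Lhfpl3 and Tnr. Their median depth was 6738.5 UMIs against 4098 in the 1415 other members. They held more of neuronal genes, with Syt1, a synaptic vesicle calcium sensor, at 3445 CPM against 564, Rbfox3, the neuronal antigen NeuN, at 412 against 45.4, and Grin2a, an NMDA receptor subunit, at 1734 against 192. Their excess was not of neuronal genes alone. Otx2os1 had the largest fold, at 175 against 5.81 CPM, and Ranbp3l, a gene of the fibroblast marker list, was at 85.8 against 6.60 CPM. The members with exactly 3 markers contributed 6.06 to 24.8% of the member UMIs of a library. Values below are for all 1585 members unless the 1415 with 4 or more markers are named, and the latter are given where the call of a named gene differs.

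Leaving the rule genes out, 4 of the 10 genes with the highest fold over all other nuclei in every library were on the list of OPC identity genes. These were the adaptor Shc4 at 12.3-fold or more, Sema3d, a guidance cue, at 11.6-fold or more, Megf11 at 11.4-fold or more and the AMPA receptor auxiliary subunit Cacng4 at 10.4-fold or more. The others were Kcnh8, a potassium channel, at 13.5-fold or more, Emid1 at 11.7-fold or more, 6030407O03Rik, Gm4876, Scel and Afap1l2. These folds are on CPM with 5 CPM added, and since the members were chosen by related genes they are a description. Ptprz1 had a median of 2139 CPM in OPCs over the 9 libraries, Xylt1, which starts chondroitin sulfate chains, 2683 CPM, and the transcription factor Sox6 1320 CPM.

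Along the lineage OPC genes were low and myelin genes high in oligodendrocytes, and genes that chose a class are given as a description. Pdgfra had a median of 570 CPM in OPCs and 4.32 CPM in newly forming oligodendrocytes (nuclei with 2 or more Enpp6 UMIs and at least 2 of Bcas1, Tcf7l2, Gpr17, Itpr2 and Nfasc, so that the levels of these genes in that class follow in part from its definition), and Ptprz1 went from 2139 to 193 and 103 CPM in OPCs, newly forming and mature oligodendrocytes. Sox10 stayed within 144 to 177 CPM in the 3 classes and had 4.23 CPM in astrocytes. Bcas1 had a median of 388 CPM in OPCs, 1154 in newly forming and 603 in mature oligodendrocytes. Gpr17 had its highest median in OPCs, 28.4 CPM, against 15.1 in newly forming and 2.4 in mature oligodendrocytes. The myelin gene regulator Myrf had 24.3, 170 and 174 CPM in this order.

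**Figure D2:**
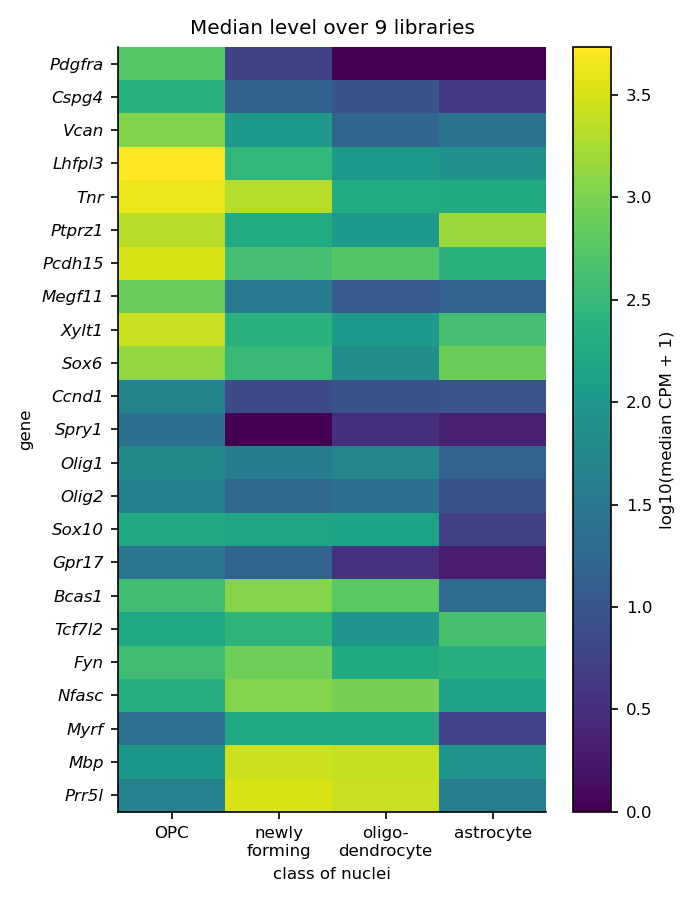
Median level over the 9 libraries, as log10(CPM + 1), of 23 genes in the summed counts of OPCs, newly forming oligodendrocytes, mature oligodendrocytes and astrocytes. Pdgfra to Sox6 are brightest in OPCs, Bcas1 and Fyn in newly forming oligodendrocytes, and Mbp and Prr5l in both oligodendrocyte classes; the 5 rule genes at the top of the plot, and Bcas1, Gpr17, Tcf7l2 and Nfasc, took part in defining classes.

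No difference in the share of OPCs among nuclei was detected. In young AAV-EGFP libraries they were 1.46, 2.5 and 1.97% of nuclei, in aged AAV-EGFP libraries 1.99, 2.69 and 2.29%, and in aged AAV-B3GNT3 libraries 1.59, 2.0 and 2.28%. The groups overlapped, and their means were 1.98% ± 0.522 (SD, n = 3), 2.32% ± 0.349 and 1.95% ± 0.347. Permuting the 9 libraries in all 280 ways and comparing F exactly gave p = 0.496.

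Among members, the share with a Bcas1 UMI differed among the groups when each member was thinned to 1500 UMIs, which left out 10 shallower members. It was 33.8, 36.9 and 37.3% in young AAV-EGFP libraries, 45.1, 46.4 and 46.2% in aged AAV-EGFP libraries and 39.8, 37.2 and 41.6% in aged AAV-B3GNT3 libraries. All aged AAV-EGFP libraries lay above all others, and the group means were 36.0% ± 1.89 (SD, n = 3), 45.9% ± 0.73 and 39.5% ± 2.21. The exact permutation test of F gave p = 0.00714, or 0.0214 adjusted over 3 measures. Aged against young AAV-EGFP and aged AAV-B3GNT3 against aged AAV-EGFP libraries each gave an exact permutation p of 0.1, the smallest that 3 against 3 allow. Astrocytes had a Bcas1 UMI in 1.67 to 3.57% of nuclei at the same depth. The call depended on the depth chosen, and the differences kept their sign. Aged minus young AAV-EGFP was 9.90 percentage points at 1500 UMIs, 6.36 at 1000 UMIs and 6.86 without thinning. Aged AAV-B3GNT3 minus aged AAV-EGFP was -6.39, -7.08 and -3.95 percentage points. The adjusted exact permutation p of F was 0.164 at 1000 UMIs and 0.468 without thinning. Summed Bcas1 counts gave an adjusted p of 0.401 for ageing in edgeR.

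The shares of members with Gpr17 and with cell cycle genes did not differ detectably. At 1500 UMIs, Gpr17 was found in 4.51 to 7.52% of young, 2.69 to 4.91% of aged AAV-EGFP and 1.58 to 8.04% of aged AAV-B3GNT3 members, against at most 0.622% of astrocytes, with an adjusted exact permutation p of 0.414. Members with at least 2 UMIs over the 25 listed cell cycle genes were 6.78 to 10.5%, 3.76 to 7.04% and 3.52 to 7.37% of these groups. The share in astrocytes was 1.79 to 5%, and the adjusted exact permutation p was 0.38. For Gpr17 this p was 0.164 at 1000 UMIs and 0.139 without thinning. Aged minus young AAV-EGFP for Gpr17 was -2.56 percentage points at 1500 UMIs, -2.58 at 1000 UMIs and -6.17 without thinning. Aged AAV-B3GNT3 minus aged AAV-EGFP changed sign with depth, at 0.52, -0.44 and -1.16 percentage points. Mki67, the usual marker of cycling cells, was below the count filter in OPC sums.

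**Figure D3:**
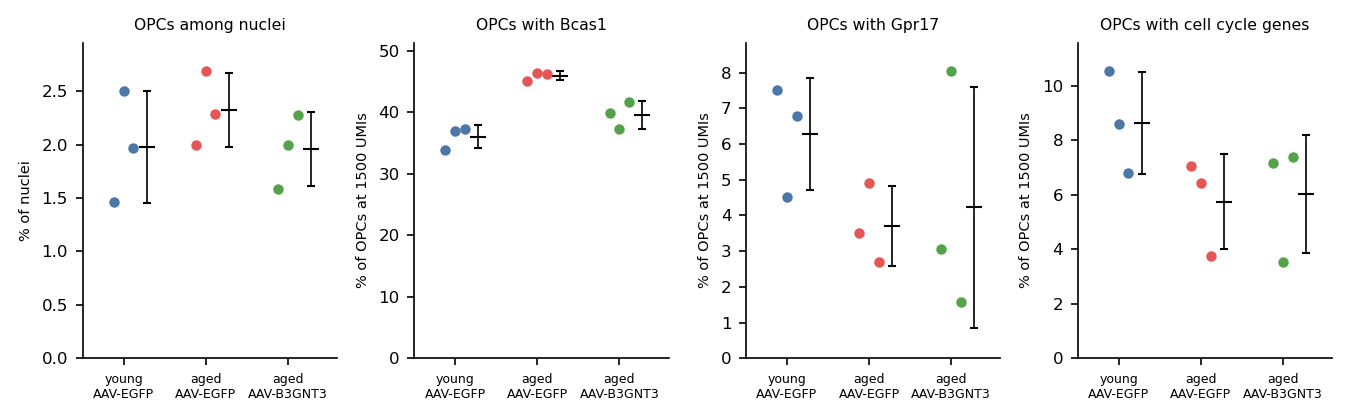
Each point is a library; the bar gives the mean and SD of 3 libraries. The left panel gives OPCs as a percentage of nuclei, and OPCs in the other panels were thinned to 1500 UMIs. From left, these give the percentage with a Bcas1 UMI, a Gpr17 UMI or at least 2 UMIs of cell cycle genes. The aged AAV-EGFP libraries stand above the others in Bcas1, at 45.1 to 46.4%, and the groups overlap in the other panels.

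Members with a Gpr17 UMI had higher pooled levels of several genes that did not choose the members. Their counts held 2604 CPM of Ptprz1 against 2170 in members without Gpr17, higher in 7 of 9 libraries. Bcas1 stood at 595 against 361 CPM, higher in 7 of 9 libraries, and the integrin gene Itga9 at 389 against 231 CPM, higher in 8 of 9. Grin2a, one of the neuronal genes that were high in members with exactly 3 markers, was at 172 against 493 CPM. These values were not thinned. Ptprz1 was at 248 CPM in members with exactly 3 markers and at 2627 CPM in those with 4 or more. In young AAV-EGFP replicates 1 and 2 all members with a Gpr17 UMI, 29 in each, had 4 or more markers. The parts of depth and of members with exactly 3 markers in these values were not tested.

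With age, transcripts of Olig2, Gapdh and Tcf25 rose in OPCs and those of Rbm20 and Dpf3 fell. By edgeR's quasi-likelihood test, 11 of 8966 genes tested (0.123%) passed an adjusted p of 0.05 among all members, 8 higher (0.0892%) and 3 lower (0.0335%) in aged AAV-EGFP mice, and 1287 had an unadjusted p under 0.05. Among the 1415 members with 4 or more markers, 86 of 8472 genes (1.02%) passed, 60 higher (0.708%) and 26 lower (0.307%), and 9 of the 11 were among them. Young and aged AAV-EGFP libraries did not overlap for 18.2% of genes among all members, 9.49% higher and 8.71% lower with age. Leaving out single libraries gave 0 to 180 calls: without young replicate 2 or 3 or aged AAV-EGFP replicate 2 or 3 no gene passed, without young replicate 1 a single gene did, without aged AAV-EGFP replicate 1 180 did, and without aged AAV-B3GNT3 replicates 1, 2 and 3 in turn 2, 5 and 50 did. These edgeR fits without a call had 882 to 1173 genes at an unadjusted p under 0.05. With free RNA subtracted none passed, with 902 at an unadjusted p under 0.05. DESeq2 called 8 genes, and 5 of the 11 were among them. Each of the 11 genes kept its direction when any single library was left out. They were chosen by their change in these same libraries, so this is a description.

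Olig2, the transcription factor that sets and keeps oligodendrocyte lineage fate, was the clearest change. Its level was 43.9, 39.3 and 34.6 CPM in OPCs of young AAV-EGFP mice, 82.0, 152 and 132 CPM in aged AAV-EGFP mice and 50.8, 41.2 and 35.0 CPM in aged AAV-B3GNT3 mice. Every aged AAV-EGFP library was above every other, and the lowest of them was replicate 1. The log2 fold change with age was 1.64 ± 0.24 (SE), with an adjusted p of 0.0223 in edgeR, and 1.59 ± 0.24 with an adjusted p of 0.00573 in members with 4 or more markers. Without single libraries it was called in 4 of 9 fits, at adjusted p values of 0.000825 to 0.109.

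Olig1, the paralogous factor needed for myelin repair, lies 41095 bases from Olig2. In GRCm38 Olig2 is at chr16:91225457-91228677 and Olig1 at chr16:91269772-91271933, both on the plus strand and protein coding, with the antisense gene Gm15966 over Olig1. Olig1 stood at 49.8, 44.8 and 56.5 CPM in young AAV-EGFP, 68.4, 130 and 120 CPM in aged AAV-EGFP and 62.5, 56.2 and 34.2 CPM in aged AAV-B3GNT3 mice. Its change with age was 1.12 ± 0.26 on the log2 scale (edgeR, adjusted p = 0.0736 among all members and 0.0322 with 4 or more markers). Sox10, their partner, did not pass (0.30 ± 0.24, adjusted p = 0.61), nor did Ptprz1 (0.28 ± 0.15, adjusted p = 0.418).

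The other rises with age were of varied function. Gapdh, a glycolytic enzyme, went from 24.9, 23.8 and 21.9 CPM in young to 54.7, 80.6 and 67.3 CPM in aged AAV-EGFP mice, a log2 fold change of 1.53 ± 0.24 (edgeR, adjusted p = 0.0417). Tcf25 rose by 1.03 ± 0.18 (adjusted p = 0.0468), Scamp5, a protein of secretory carrier membranes, by 1.04 ± 0.19 (adjusted p = 0.049) and Traf3ip2, an adaptor of IL-17 signalling, by 1.09 ± 0.20 (adjusted p = 0.049). AC149090.1, a coding gene on an unplaced scaffold, rose by 1.70 ± 0.30 (adjusted p = 0.049), and varied from 91.4 to 321 CPM within the young group. The remaining calls were the predicted genes Gm48530 and Gm12216, and Gm48530 had too few counts to be tested with 4 or more markers.

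Further rises were called in members with 4 or more markers. Spry1, a feedback inhibitor of receptor tyrosine kinases, was at 9.86, 11.2 and 13.7 CPM in young and 31.4, 35.1 and 47.6 CPM in aged AAV-EGFP OPCs, which is 1.73 ± 0.34 on the log2 scale (edgeR, adjusted p = 0.0227). Ccnd1, cyclin D1, was at 55.2, 35.7 and 23.5 against 79.5, 73.6 and 95.3 CPM, a change of 1.13 ± 0.26 (adjusted p = 0.042). Pou3f1, a POU factor best known from myelinating Schwann cells, rose by 1.44 ± 0.31 (adjusted p = 0.0322), S100b, a calcium-binding glial protein, by 1.30 ± 0.30 (adjusted p = 0.0393), and the integrin subunit Itgav by 1.01 ± 0.23 (adjusted p = 0.0387). The histone gene H3f3b rose by 1.80 ± 0.34, polyubiquitin Ubb by 1.44 ± 0.29 and Oaz1, an inhibitor of polyamine synthesis, by 1.42 ± 0.26. Pcsk1n and Zc3h6 rose by 1.83 ± 0.33 and 1.65 ± 0.31. These genes had adjusted p values of 0.0171 to 0.023. Among all members Spry1, Ccnd1, Pou3f1 and S100b had adjusted p values of 0.0522, 0.0647, 0.0569 and 0.0569.

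The falls with age were fewer among all members and among those with 4 or more markers. DESeq2 called 4 higher and 4 lower, and without aged AAV-EGFP replicate 1 edgeR called 87 higher and 93 lower. Rbm20, a splicing regulator, was at 48.3, 44.8 and 56.5 CPM in young and 24.3, 14.4 and 18.4 CPM in aged AAV-EGFP OPCs, a log2 fold change of -1.40 ± 0.26 (edgeR, adjusted p = 0.049) and -1.58 ± 0.28 with 4 or more markers (adjusted p = 0.0171). Dpf3, a subunit of BAF chromatin remodelling complexes, went from 116, 141 and 146 to 60.8, 59.5 and 42.3 CPM, or -1.31 ± 0.25 (adjusted p = 0.049). With 4 or more markers the falls included Dpysl3, a growth cone protein, by 1.22 on the log2 scale (adjusted p = 0.0218), the semaphorin receptor gene Nrp1 by 1.42 (adjusted p = 0.0322), the endothelin receptor gene Ednrb by 0.90 (adjusted p = 0.0487), the Wnt5a receptor gene Ror1 by 0.96 (adjusted p = 0.0491) and Lars2, the mitochondrial leucyl-tRNA synthetase, by 1.03 (adjusted p = 0.0334).

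Lama2, the laminin alpha-2 chain, was called lower among all members and not among those with 4 or more markers. It was at 92.2, 103 and 117 CPM in young and 13.7, 44.1 and 29.3 CPM in aged AAV-EGFP members, a log2 fold change of -1.76 ± 0.33 (edgeR, adjusted p = 0.049). With 4 or more markers it was -0.82 ± 0.49 (adjusted p = 0.432). The summed level of 12 fibroblast markers in members was 41.7 to 131 CPM in young, 4.14 to 27.4 CPM in aged AAV-EGFP and 14.3 to 85.5 CPM in aged AAV-B3GNT3 libraries, with Igf2 at 0, and its part in the result was not tested. In members with 4 or more markers this sum was 12.9 to 28.5, 1.22 to 25.2 and 9.93 to 48.6 CPM in these groups, with Col3a1 and Igf2 at 0. With members holding 3 or more markers of another class removed, a choice made after seeing the data, the change was -1.56 (adjusted p = 0.0743).

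**Figure D4:**
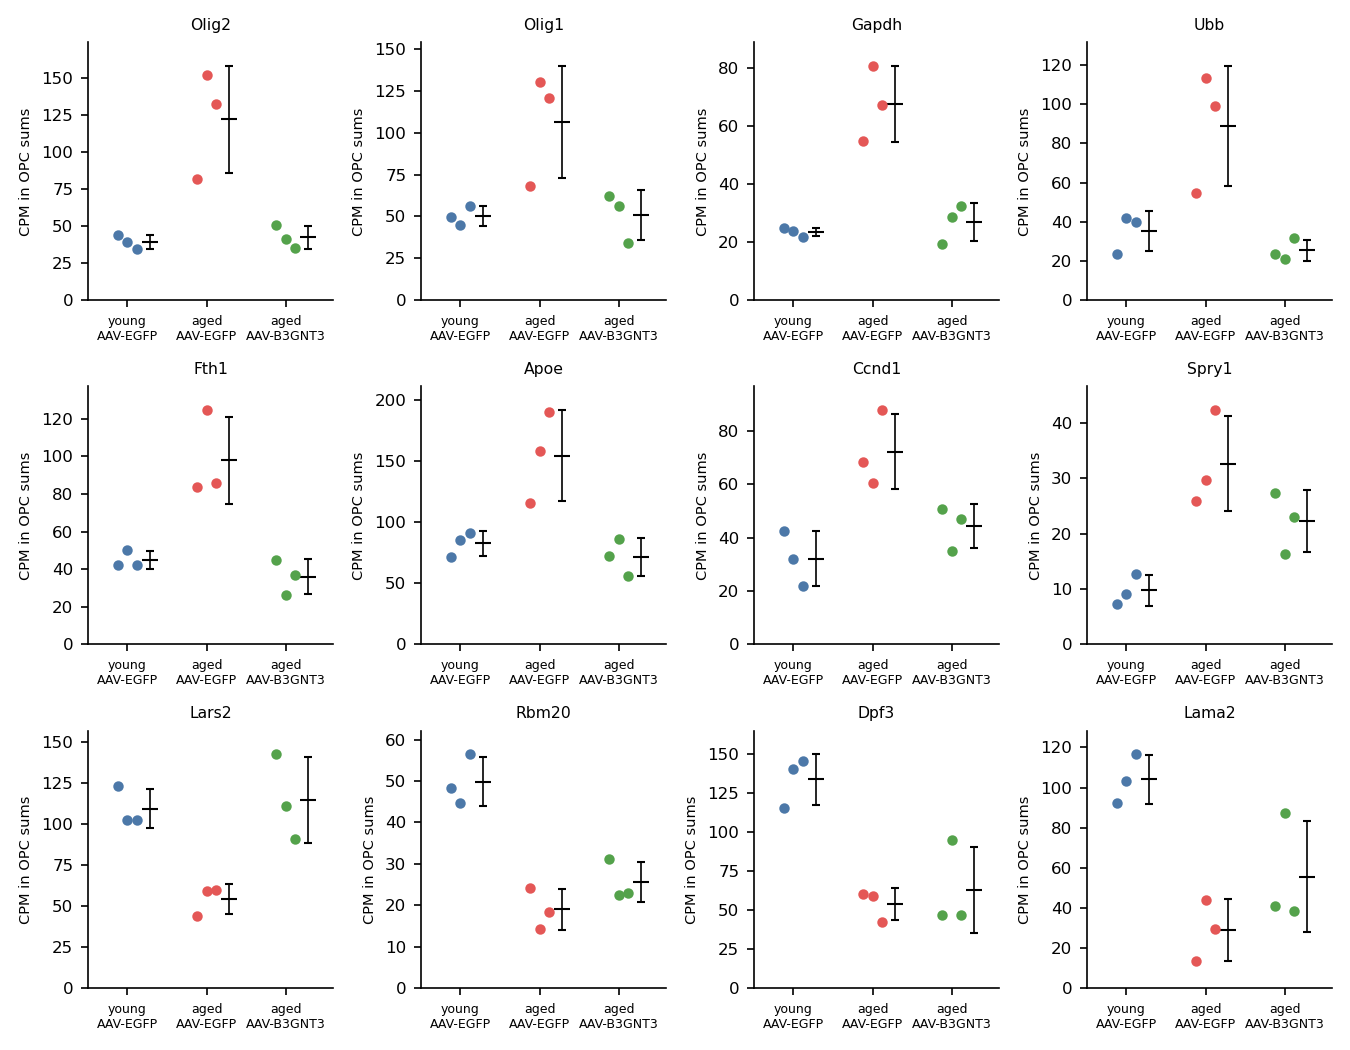
CPM of 12 genes in the summed counts of all members, on TMM-scaled totals; each point is a library and the bar gives the mean and SD of 3 libraries. In Olig2, Olig1, Gapdh, Ubb, Fth1 and Apoe the aged AAV-EGFP libraries stand above both other groups, in Lars2 they stand below, and Rbm20, Dpf3 and Lama2 are higher in young mice.

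With AAV-B3GNT3 in aged mice, 12 of 8966 genes (0.134%) passed among all members by edgeR, 2 higher (0.0223%) and 10 lower (0.112%) than in aged AAV-EGFP mice, and 943 had an unadjusted p under 0.05. With 4 or more markers 39 of 8472 (0.46%) passed, 2 higher (0.0236%) and 37 lower (0.437%), and 10 of the 12 were among them. The groups did not overlap for 15.4% of genes, 6.97% higher and 8.42% lower. Without aged AAV-EGFP replicate 2 or 3, or without aged AAV-B3GNT3 replicate 1, no gene passed, with 636 to 1007 at an unadjusted p under 0.05, and 52 passed without aged AAV-B3GNT3 replicate 3. There were 2 calls without aged AAV-B3GNT3 replicate 2, neither of them among the 12. With free RNA subtracted none passed, with 627 at an unadjusted p under 0.05. There were 6 calls without young AAV-EGFP replicate 2, 20 without young replicate 1 and 27 without aged AAV-EGFP replicate 1. DESeq2 called 28.

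Olig2 was lower with AAV-B3GNT3 by 1.58 on the log2 scale (SE 0.23, edgeR, adjusted p = 0.0205), and by 1.58 with 4 or more markers (adjusted p = 0.0044). Olig1 had a log2 fold change of -1.14 ± 0.26 (adjusted p = 0.0809 among all members and 0.0363 with 4 or more markers). The values in the libraries are those given above, and since the aged AAV-EGFP libraries serve in both comparisons, a high value in them appears as a rise with age and a fall with AAV-B3GNT3. In the aged AAV-B3GNT3 libraries Olig2, at 35.0 to 50.8 CPM, overlapped the young range of 34.6 to 43.9 CPM.

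The other falls included genes of iron storage, protein turnover and lipid transport. Fth1, ferritin heavy chain, was at 83.6, 125 and 85.7 CPM in aged AAV-EGFP and 44.9, 26.2 and 36.8 CPM in aged AAV-B3GNT3 OPCs, a log2 fold change of -1.48 ± 0.23 (edgeR, adjusted p = 0.0205). Ubb was at 54.7, 113 and 98.7 against 23.4, 21.2 and 31.6 CPM, or -1.79 ± 0.29 (adjusted p = 0.0239). Apoe, the main lipid carrier of the brain, was at 115, 158 and 190 against 72.2, 86.2 and 55.6 CPM, or -1.14 ± 0.21 (adjusted p = 0.0408). Eif1, a translation initiation factor, and Gapdh fell by 1.45 and 1.28 on the log2 scale (adjusted p = 0.0303 and 0.0396). The predicted gene Gm15478 and the genes 4932443L11Rik, Chchd2 and 4930517O19Rik were also called. With 4 or more markers H3f3b, Pcsk1n, Pou3f1 and Sycp2 were called lower as well. H3f3b was at 37.0, 116 and 72.1 CPM in aged AAV-EGFP and 29.2, 20.3 and 27.3 CPM in aged AAV-B3GNT3 OPCs. Pcsk1n was at 37.0, 79.4 and 62.3 against 21.9, 26.1 and 15.3 CPM. Pou3f1 was at 51.8, 104 and 80.6 against 36.5, 18.8 and 32.7 CPM. Sycp2 was at 148, 130 and 121 against 14.6, 42.0 and 77.4 CPM.

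Few genes were higher with AAV-B3GNT3. The transcription factor gene Glis3 was at 47.1, 25.9 and 22.8 CPM in aged AAV-EGFP and 102, 79.9 and 86.3 CPM in aged AAV-B3GNT3 members (edgeR, 1.52 ± 0.27, adjusted p = 0.0362), and Clmn at 38.0, 48.0 and 43.4 against 102, 99.9 and 78.6 CPM (1.08 ± 0.20, adjusted p = 0.041). Neither passed with 4 or more markers (0.56 ± 0.41 and 0.50 ± 0.31), where their adjusted p values were 0.668 and 0.606. The only fibroblast marker tested among all members, Ranbp3l, had a log2 fold change of 2.85 with AAV-B3GNT3 and -4.11 with age. Both had an unadjusted p under 0.05 in edgeR and neither was called. The part of fibroblast markers in the rises of Glis3 and Clmn was not tested. Lars2 was at 44.1, 59.5 and 59.7 CPM in aged AAV-EGFP and 143, 111 and 90.6 CPM in aged AAV-B3GNT3 members. Its change was 1.03 ± 0.20 (adjusted p = 0.0577), and 1.07 ± 0.22 with 4 or more markers (adjusted p = 0.0363). Nxn and Sipa1l3 had the next smallest p values and did not pass, at 1.15 ± 0.24 (adjusted p = 0.061) and 0.79 ± 0.17 (adjusted p = 0.073).

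For some of these genes the aged AAV-EGFP libraries also stood apart outside OPCs. In all other nuclei of the libraries Gapdh was at 21.1 to 27.8 CPM in young AAV-EGFP, 37.9 to 58.1 in aged AAV-EGFP and 26.3 to 27.5 in aged AAV-B3GNT3 mice, and Fth1 at 43.2 to 57.8, 95.2 to 139 and 40.4 to 58.8 CPM. Olig2 in other nuclei was at 2.86 to 5.62, 5.82 to 16.7 and 3.94 to 7.65 CPM, and the aged groups overlapped. Lars2 in other nuclei was at 72.5 to 104, 51.3 to 58.2 and 81.6 to 112 CPM. Genes spanning under 10 kb took 4.04 to 4.64% of OPC UMIs in young AAV-EGFP, 4.93 to 5.80% in aged AAV-EGFP and 4.21 to 4.74% in aged AAV-B3GNT3 libraries, and 4.24 to 4.92%, 5.32 to 6.03% and 4.72 to 5.0% of UMIs in other nuclei. Transcripts of 82 ribosomal protein genes summed to 905 to 970, 1046 to 1488 and 885 to 979 CPM in OPCs. Mitochondrial UMIs were at most 0.0161% in any library's OPCs.

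**Figure D5:**
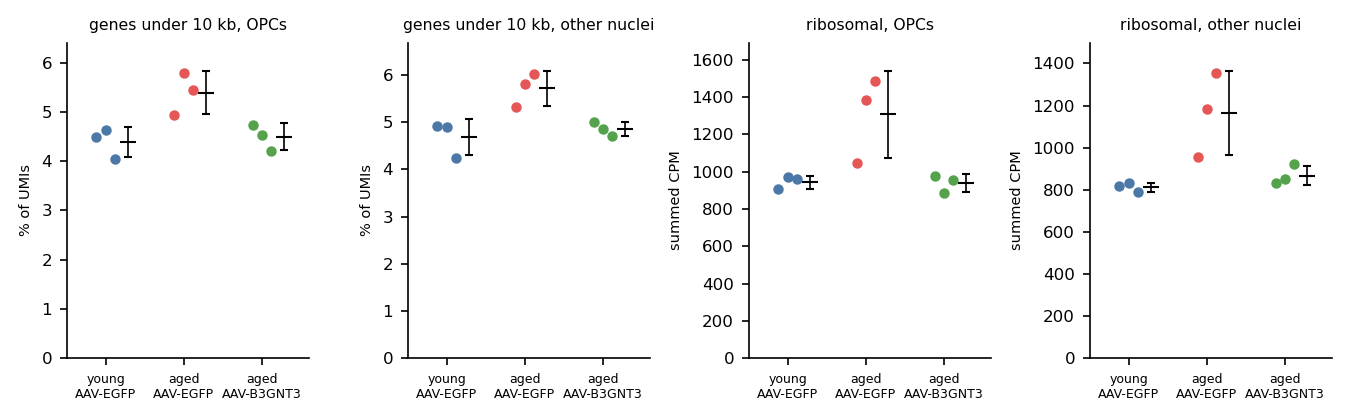
Percentage of UMIs from genes spanning under 10 kb and summed CPM of 82 ribosomal protein genes, in OPCs and in all other nuclei, by library, with mean and SD of 3 libraries. In all 4 panels the 3 aged AAV-EGFP libraries stand above the libraries of both other groups, from 4.93 to 5.80% for genes under 10 kb in OPCs and from 5.32 to 6.03% in other nuclei.

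The called genes differed in length by direction. The median span of the 10 genes lower with AAV-B3GNT3 was 4.44 kb, and 8 were under 10 kb, against a median of 41.4 kb and 838 under 10 kb over the 8966 genes tested. The 60 genes higher with age in members with 4 or more markers had a median span of 25.4 kb, with 23 under 10 kb, and the 26 lower genes a median of 116 kb, with 1 under 10 kb, where the 8472 genes tested had a median of 42.8 kb and 716 were under 10 kb. Olig2 and Olig1 span 3.22 and 2.16 kb. The part of this difference between libraries in the calls was not tested.

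Of the 24 OPC identity genes measured, Olig2 was called higher with age and lower with AAV-B3GNT3, and the others were not called among all members, where 0.123% and 0.134% of all genes were called. With age 13 had a positive estimate and 4 an unadjusted p under 0.05, where 1287 of all 8966 genes did. With AAV-B3GNT3 17 had a negative estimate and 12 an unadjusted p under 0.05, where 943 of all genes did. The median log2 fold change of the identity genes was 0.03 with age and -0.23 with AAV-B3GNT3, against 0.01 and 0.00 over all genes. With AAV-B3GNT3, 8 of 9 tested excitatory neuron markers also had a negative estimate, with a median of -0.36 and 3 at an unadjusted p under 0.05, and the median was -0.39 with 4 or more markers of the OPC list. Their 12 markers, none at 0, summed to 1331 to 2417 CPM in young, 1755 to 2749 CPM in aged AAV-EGFP and 1679 to 2400 CPM in aged AAV-B3GNT3 members. Of 8 tested RNA quality genes, which are abundant nuclear and mitochondrial transcripts, 7 had a negative estimate with AAV-B3GNT3, with a median of -0.42 and 1, the nuclear RNA Malat1, at an unadjusted p under 0.05. The 11 measured genes of that list, none at 0, summed to 21648 to 29439 CPM in young, 30347 to 36905 CPM in aged AAV-EGFP and 24085 to 25605 CPM in aged AAV-B3GNT3 members, and the ranges of the aged groups did not overlap. Malat1 was at -0.61 ± 0.16 (edgeR, adjusted p = 0.155) among all members and was called lower with 4 or more markers, at -0.63 ± 0.14 (adjusted p = 0.0431). The part of the neuronal and RNA quality genes in the lower identity median was not tested. Pcdh15, a protocadherin, had 3630 to 4453 CPM in aged AAV-EGFP and 2527 to 2846 CPM in aged AAV-B3GNT3 members (edgeR, -0.63 ± 0.15, adjusted p = 0.0971). Cspg5 had a log2 fold change of 0.62 ± 0.15 with age (adjusted p = 0.0798).

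Genes of commitment to oligodendrocytes gave no call in either comparison. Of 14 tested, 10 had a negative estimate with age and 3 had an unadjusted p under 0.05, with a median log2 fold change of -0.23, where 1287 of all 8966 genes were under that p and their median was 0.01. With AAV-B3GNT3, 11 of the 14 had a positive estimate and 3 an unadjusted p under 0.05 in edgeR, with a median of 0.14. Over all genes 943 were under that p and the median was 0.00. Mature oligodendrocyte markers had a positive estimate with AAV-B3GNT3 in 8 of 11, with a median of 0.30. With 4 or more markers of the OPC list these were 10 of 14 and 7 of 11, with medians of 0.15 and 0.18. Markers of other cell types went in both directions with age in the same members. The estimate was negative for 8 of 11 tested mature oligodendrocyte markers, with a median of -0.27 and 3 at an unadjusted p under 0.05, and for 9 of 12 tested astrocyte markers, with a median of -0.29 and 3 under that p. It was positive for 4 of 5 tested microglia markers, with a median of 0.31, and for 8 of 9 tested excitatory neuron markers, with a median of 0.11. With 4 or more markers of the OPC list it was negative for 7 of 11 mature oligodendrocyte markers, with a median of -0.20, for 6 of 11 astrocyte markers, with a median of -0.08, and for 5 of 9 excitatory neuron markers, with a median of -0.02. Of the last list Cck, cholecystokinin, was called higher there, at 1.53 ± 0.37 (edgeR, adjusted p = 0.0491). The 14 mature oligodendrocyte markers, none at 0, summed to 533 to 687 CPM in young, 454 to 478 CPM in aged AAV-EGFP and 579 to 737 CPM in aged AAV-B3GNT3 members. The 13 astrocyte markers, none at 0, summed to 5672 to 6148 CPM in young, 4970 to 6685 CPM in aged AAV-EGFP and 5789 to 6417 CPM in aged AAV-B3GNT3 members. Their part in the commitment estimates was not tested. Tcf7l2, a Wnt effector, had a median over libraries of 168 CPM in OPCs, 278 CPM in newly forming oligodendrocytes, a class it helped to choose, and 444 CPM in astrocytes. It was at 247, 219 and 210 CPM in young, 185, 116 and 103 CPM in aged AAV-EGFP and 133, 191 and 149 CPM in aged AAV-B3GNT3 OPCs. Its change with age was -0.76 ± 0.21 (edgeR, adjusted p = 0.116), and young and aged AAV-EGFP libraries did not overlap. Gpr17 had -0.55 ± 0.32 with age (adjusted p = 0.457).

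The fixed lists of growth, division and signalling genes gave 2 calls in all. Ror1, Ednrb and Traf3ip2, given above, are not on them. Of 24 growth factor receptor and signalling genes none was called among all members and Spry1 was with 4 or more markers, and of 9 G1 cyclins and inhibitors only Ccnd1 was, with 4 or more markers and age. Over all genes 0.123% were called with age among all members and 1.02% with 4 or more markers. Of 25 cell cycle genes 3 passed the count filter and none was called. The EGF receptor gene Egfr was at 20.5, 34.7 and 38.3 CPM in young and 9.12, 16.3 and 4.34 CPM in aged AAV-EGFP members (edgeR, -1.60 ± 0.43, adjusted p = 0.113). None of 24 Wnt and Notch or 19 BMP and TGF-beta genes was called among all members. Notch2 had the smallest p of the former, at 33.7, 38.4 and 21.9 CPM in young against 9.12, 9.59 and 10.9 CPM in aged AAV-EGFP members (-1.69 ± 0.37, adjusted p = 0.0647), and Bmpr1b of the latter (-1.33 ± 0.31, adjusted p = 0.0737).

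Of the fixed gene lists, those of matrix, synaptic and adhesion genes gave 1 call in all. Lama2 and Itgav, given above, are not on them. None of 21 chondroitin sulfate matrix, 35 glutamate and GABA receptor, 35 ion channel and 43 adhesion and guidance genes was called among all members, and with 4 or more markers Nrp1 of the last list was, lower with age, where 1.02% of all genes were called. The matrix protease gene Adamts5 had 1.35 ± 0.33 with age (edgeR, adjusted p = 0.0856) and the matrix glycoprotein gene Tnc 1.16 ± 0.35 (adjusted p = 0.147). With AAV-B3GNT3, 32 of 43 adhesion and guidance genes had a negative estimate, with a median of -0.26, and 14 had an unadjusted p under 0.05, where 943 of all 8966 genes did and their median was 0.00. With 4 or more markers 27 of 43 were negative, with a median of -0.20. Of the glutamate and GABA receptor genes 25 of 35 were negative with AAV-B3GNT3, with a median of -0.16. With 4 or more markers 19 of 34 were, with a median of -0.05. The excitatory neuron markers and RNA quality genes given above with the identity genes also had negative medians, and their part in these counts was not tested. Dcc, the netrin receptor gene, had -0.59 ± 0.15 (adjusted p = 0.12) and Nlgn1, neuroligin 1, -0.56 ± 0.14 (adjusted p = 0.131). In other nuclei the log2 ratios of Dcc and Nlgn1 were -0.67 and -0.28.

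The fixed lists of immune, lipid and stress genes gave 1 call among all members, Ubb with AAV-B3GNT3, where 0.134% of all genes were called. Apoe and Traf3ip2, given above, are not on them. Of 12 complement, MHC class I and interferon genes none was called; C4b, a complement gene that rises with age in glia, was at 5.85, 4.57 and 1.82 CPM in young, 7.60, 15.4 and 14.1 CPM in aged AAV-EGFP and 11.7, 22.5 and 13.7 CPM in aged AAV-B3GNT3 OPCs (edgeR, ageing 1.55 ± 0.52, adjusted p = 0.187). Of 15 tested cholesterol synthesis genes none was called. With age 13 had a positive estimate, with a median log2 fold change of 0.29 and 3 at an unadjusted p under 0.05, and with AAV-B3GNT3 14 did, with a median of 0.14 and 2 under that p, where the medians over all genes were 0.01 and 0.00. With 4 or more markers the estimates were positive for 12 of 14 with age, with a median of 0.57, and for 10 of 14 with AAV-B3GNT3, with a median of 0.21. Of 17 proteostasis genes Ubb was called, and the endoplasmic reticulum chaperone gene Hsp90b1 had -0.79 ± 0.22 with age (adjusted p = 0.116). None of 18 circadian clock, 11 glucocorticoid response and 20 DNA methylation and chromatin genes was called.

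No gene passed the test that its change differs between OPCs and mature oligodendrocytes. Testing the difference of the changes in 1 edgeR fit per pair of classes, 0 genes passed for ageing and 0 for AAV-B3GNT3 against mature oligodendrocytes (0% in both, with 839 and 531 at an unadjusted p under 0.05). Olig2 rose with age by 1.82 on the log2 scale in mature oligodendrocytes (adjusted p = 0.046), and its change in OPCs minus that in oligodendrocytes was -0.19 ± 0.38 (adjusted p = 0.932). Scamp5 had 0.05 in oligodendrocytes, with a difference of 0.92 ± 0.21 (edgeR, adjusted p = 0.158), and Rbm20 had 0.25, with a difference of -1.72 ± 0.40 (adjusted p = 0.16). C4b rose by 2.89 in oligodendrocytes (adjusted p = 0.0165), with a difference of -1.39 ± 0.82 (adjusted p = 0.638).

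Against astrocytes 2 genes differed in their change with age (0.0223%), 1 higher and 1 lower in OPCs (0.0112% each), with 870 at an unadjusted p under 0.05, and 0 differed with AAV-B3GNT3, with 642. Abcg1, a cholesterol exporter, was at 49.8, 45.7 and 63.8 CPM in young and 76.0, 117 and 113 CPM in aged AAV-EGFP OPCs, a change of 0.98 ± 0.21 that did not pass among all members (adjusted p = 0.0569), and had -1.16 in astrocytes (adjusted p = 0.0703). Without young replicate 1 or 2 or aged AAV-EGFP replicate 3 neither gene passed. The difference was 2.11 ± 0.34 (edgeR, adjusted p = 0.0498). Lama2 differed by -2.06 ± 0.33 (adjusted p = 0.0498), with the limit given above for its fall in OPCs. Olig2 had 0.41 in astrocytes, and its difference of 1.16 ± 0.35 did not pass (adjusted p = 0.262).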

How the data were processed

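The authors prepared nuclei from pooled cortex and hippocampus, sorted them on Hoechst and made 10x 3′ v3.1 libraries. The deposited matrices hold counts (whole UMIs per gene and nucleus) on mm10. The submitters' processing notes name Cell Ranger 4.0.0 and the matrix headers 7.2.0; whether intronic reads were counted is not given in the sources used here. Each library came from a different mouse per the authors; litters and days are not given in the sources used here.

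Members were taken by the rule above, with no clustering. The members, gene lists and comparisons were chosen with earlier results of these data known. Counts were summed per library and filtered with filterByExpr (minimum 10), scaled by TMM and fitted with edgeR 4.0.16 over all 9 libraries. The 13 genes of the rule got no test, and p-values were adjusted over all other genes. Classes were compared in a fit with library as a block. The class comparisons also left out the genes that defined the classes. Shares were compared by two-sided exact permutation; 3 against 3 libraries cannot go below 0.1. Doublets were marked at 0.8% per 1000 barcodes. CPM of named genes uses TMM totals, and CPM of classes, other nuclei and marker sums uses raw totals. Positions are from GENCODE vM21.

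Named genes were those with an adjusted p under 0.05, a mean of at least 20 UMIs and groups without overlap (up to 10 per direction, without Gm and Rik genes; the 5 smallest p where fewer than 3 passed), up to 4 of each list, and Ptprz1, Olig2, Sox10, Gpr17, Bcas1, Tcf7l2, Ccnd1, Mki67 and C4b. The rule was applied to all members and to those with 4 or more markers. Itgav, Ednrb, Ror1, Nrp1, Abcg1, the other calls outside the rule, and the genes of the label check and Gpr17 comparison were added after their values were seen. Alternatives were DESeq2 1.42.0, other scaling and filters, fewer libraries, stricter membership, thinning, free RNA subtraction (25th percentile of the ratio of other classes' markers) and doublet removal. Some measured genes are not reported here.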

Additional observations from a re-analysis of the deposited data

Results flagged for a closer look

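Abcg1 and Lama2 stood out because their change with age differed between all OPC members and astrocytes in the edgeR test of the difference itself. For Abcg1 the log2 change in OPCs minus that in astrocytes was 2.11, and for Lama2 it was -2.06, both at an adjusted p of 0.0498. Both passed with RLE size factors as well, and neither passed without young AAV-EGFP replicate 1 or 2 or aged AAV-EGFP replicate 3. Only Abcg1 passed without young AAV-EGFP replicate 3, and only Lama2 without aged AAV-B3GNT3 replicate 2. The difference was not tested in members with 4 or more markers, where the change of Lama2 with age was -0.82 ± 0.49 (edgeR, adjusted p = 0.432) and that of Abcg1 0.94 ± 0.21 (adjusted p = 0.0356). The level of Abcg1 in astrocytes was 4.02 to 11.2 CPM over the 9 libraries, against 43.0 to 114 CPM in OPCs. Lama2 stood at 755 to 994 CPM in astrocytes and 12.4 to 111 CPM in OPCs.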

How the results depend on the processing

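Counts of genes called with ageing and with AAV-B3GNT3 (11 and 12) depended on the processing. No filter on low counts gave 275 and 202, members with 4 or more markers 86 and 39, thinning to 1500 UMIs 40 and 40, doublet removal 23 and 20, and free RNA subtraction 0 and 0. DESeq2 gave 8 and 28, with 5 of the 11 and 10 of the 12 among them. Fitting only the groups compared gave 5 and 16. Removal of members with markers of 4 other classes, chosen after seeing the data, gave 7 and 23. Leaving out single libraries gave 0 to 180 and 0 to 52. The causes were not tested. For the difference from mature oligodendrocytes no filter gave 152 and 28, and single libraries 0 to 5 and 0 to 1. For that from astrocytes no filter gave 156 and 58, RLE size factors 5 for ageing, and single libraries 0 to 70 and 0 to 2. The Bcas1 difference had an adjusted exact permutation p of 0.468 without thinning and 0.164 at 1000 UMIs. The Gpr17 change with AAV-B3GNT3, never called, was 0.21 with thinning, and -0.86 to 0.028 over the fits leaving out 1 library. Free RNA, 98 to 269 members a library and 3 libraries a group limit what can be detected.

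The replicate block gave 18 calls for ageing and 20 for AAV-B3GNT3. Deviations from group means in samples of the same number had correlations of 0.05 to 0.16 for ageing and -0.15 to -0.01 for AAV-B3GNT3. In samples of different number they were -0.14 to 0.06 and -0.05 to 0.15. With 3 libraries a group these values cannot show whether the numbers pair the samples.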
